A study of Homo sapiens with 6 samples.

Results

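The MYC, MAX and MXD network was followed on Affymetrix U133 Plus 2.0 arrays in 3 Burkitt lymphoma lines. Its 10 genes are MYC, MYCN, MYCL, MAX, MXD1, MXD3, MXD4, MXI1, MNT and MGA, and they were found by the current or former gene symbol in the platform annotation. They had 32 of the 54675 probe sets, and 29 of these named a single gene. Each gene was represented by its brightest probe set, averaged across all 6 arrays, and 9 members were tested among 12012 genes at or above a level minimum of 4.42 on the log2 scale. All 3 probe sets of MXD4 also carry the symbol MIR4800, a microRNA gene inside MXD4. No probe set is annotated to MXD4 alone, so it was not tested under its name. Namalwa, Raji and Ramos were each measured on 2 arrays, an empty one and a miR26a one, which gives 3 arrays per group. The labels list doxycycline at 0.5 µg/ml over 72 h for every sample, to induce the microRNA in transfected cells, so the empty cells had the drug as well. The title of the study concerns repression of miR-26a by MYC and, through it, the level of EZH2, the methyltransferase of Polycomb repressive complex 2, and the comparisons ask which RNAs differ with miR-26a and between the lines. No source used here names more than 1 culture per line and group. In the fit of line and group, the spread behind the p-values mixes 2 things. These are differences between the lines in the miR26a change and noise between arrays, which may be technical.

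MYC proteins bind DNA as pairs with MAX and raise transcription from promoters that hold the E-box CACGTG. MXD proteins, MXI1, MNT and MGA pair with the same MAX and repress from the same sites, the MXD proteins and MNT by bringing in the SIN3 corepressor with its histone deacetylases. In Burkitt lymphoma a translocation places MYC under the control of an immunoglobulin locus, and its RNA is made at a high and steady level.

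The microRNA that was induced and the promoter windows below are shown because they are the sequences the 2 parts of the study turn on, the added RNA and the E-box that the network reads. The mature miR-26a comes from 2 loci, at chr3:37969413-37969434 on the plus strand and chr12:57824658-57824679 on the minus strand (GRCh38.p14, RefSeq), and shares its seed, bases 2 to 8, in capitals, with miR-26b.
hsa-miR-26a-5p: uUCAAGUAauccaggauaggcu
hsa-miR-26b-5p: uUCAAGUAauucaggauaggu
Seed matches in the members' transcripts were not looked for here.

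The 250 bases before each annotated start were searched on both strands for CACGTG and for the wider form CANNTG, which includes it. RefSeq windows matched 9 of the 10 members, all but MYC, with 14 windows in all. CACGTG stood in 2 of the 14, against 6.35% of the 35116 windows in the RefSeq table (8.12% of the windows of tested genes). CANNTG stood in 8 of the 14, against 61.8% of all windows and 55.0% of the windows of tested genes. The windows with CACGTG belong to the repressors MXD4, 238 bases before the start at chr4:2262110-2262359 (minus strand), and MNT, 193 bases before the start at chr17:2401061-2401310 (minus strand). The window of MXD1, the member that read below the level minimum in Raji, at chr2:69914859-69915108 (plus strand), held 3 matches to CANNTG and none to CACGTG. Capitals mark CACGTG.
MXD4: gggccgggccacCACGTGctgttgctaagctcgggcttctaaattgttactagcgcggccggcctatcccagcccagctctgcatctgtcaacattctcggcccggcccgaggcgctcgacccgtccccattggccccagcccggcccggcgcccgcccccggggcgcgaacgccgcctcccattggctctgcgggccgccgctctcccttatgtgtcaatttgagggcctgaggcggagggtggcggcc
MNT: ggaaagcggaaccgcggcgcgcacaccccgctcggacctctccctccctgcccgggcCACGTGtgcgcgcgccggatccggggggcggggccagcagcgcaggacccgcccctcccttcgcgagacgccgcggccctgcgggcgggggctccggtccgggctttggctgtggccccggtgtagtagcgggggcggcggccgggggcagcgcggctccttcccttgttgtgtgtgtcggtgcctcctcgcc
MXD1: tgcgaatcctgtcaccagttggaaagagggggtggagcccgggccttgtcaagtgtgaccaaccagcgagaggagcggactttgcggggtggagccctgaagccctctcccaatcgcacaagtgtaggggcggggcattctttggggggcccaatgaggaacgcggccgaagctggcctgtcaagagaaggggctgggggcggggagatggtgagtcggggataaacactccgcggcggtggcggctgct

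Array medians lay between 4.36 and 4.44 log2, and precision is limited by how few arrays there are. Of 10 B-cell and germinal centre markers, 9 had a probe set of their own and all 9 lay above the level minimum, with array means of 8.60 to 9.40. Markers of T and NK cells (1 of 8 above the minimum), monocytes (1 of 6), fibroblasts (3 of 5) and red cells (1 of 2 on the array) had array means of 3.41 to 5.24. Both the Namalwa empty and the Ramos empty array stood apart on control probe sets. Namalwa empty had a gap of 3.58 log2 between the 3′ and 5′ control probe sets of ACTB, where the other arrays had gaps of 1.80 to 1.98. The mean of the 18S ribosomal RNA probe sets was 6.68 on Namalwa empty and 8.99 on Ramos empty, beside 7.49 to 7.72 on the remaining 4 arrays, and the part of either in the results was not tested. EZH2 had miR26a changes of -0.76 (Namalwa), -0.31 (Raji) and -0.61 (Ramos) and did not pass over all genes (limma adjusted p = 0.106).

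MYC RNA was highest in Ramos, intermediate in Namalwa and lowest in Raji. Its log2 level, empty array first, was 10.81 and 10.89 in Namalwa, 10.37 and 10.27 in Raji, and 11.33 and 11.60 in Ramos. The ranges of the 3 lines did not overlap, while within each line the empty and miR26a arrays lay close together. The mean was 11.46 ± 0.19 (SD, n = 2) in Ramos, 10.85 ± 0.05 in Namalwa and 10.32 ± 0.07 in Raji. Ramos exceeded Raji by 2.21-fold (Raji minus Ramos -1.14, SE 0.13, limma adjusted p = 8.62e-05). Ramos exceeded Namalwa by 1.53-fold (limma adjusted p = 0.0148), and Namalwa exceeded Raji by 1.44-fold (limma adjusted p = 0.00955). Without the Namalwa empty array the differences from Namalwa were much the same in size but did not pass (adjusted p = 0.0549 against Raji and 0.0789 against Ramos, within ranges of 0.0018 to 0.141 and 0.00275 to 0.274 over 19 alternatives each). The call of Namalwa against Raji was also lost without the Raji miR26a array (adjusted p = 0.0773), and that of Namalwa against Ramos without the Namalwa miR26a array (0.0804) or the Ramos miR26a array (0.193). MYC has a single probe set, so no other set checks it.

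**Figure D1:**
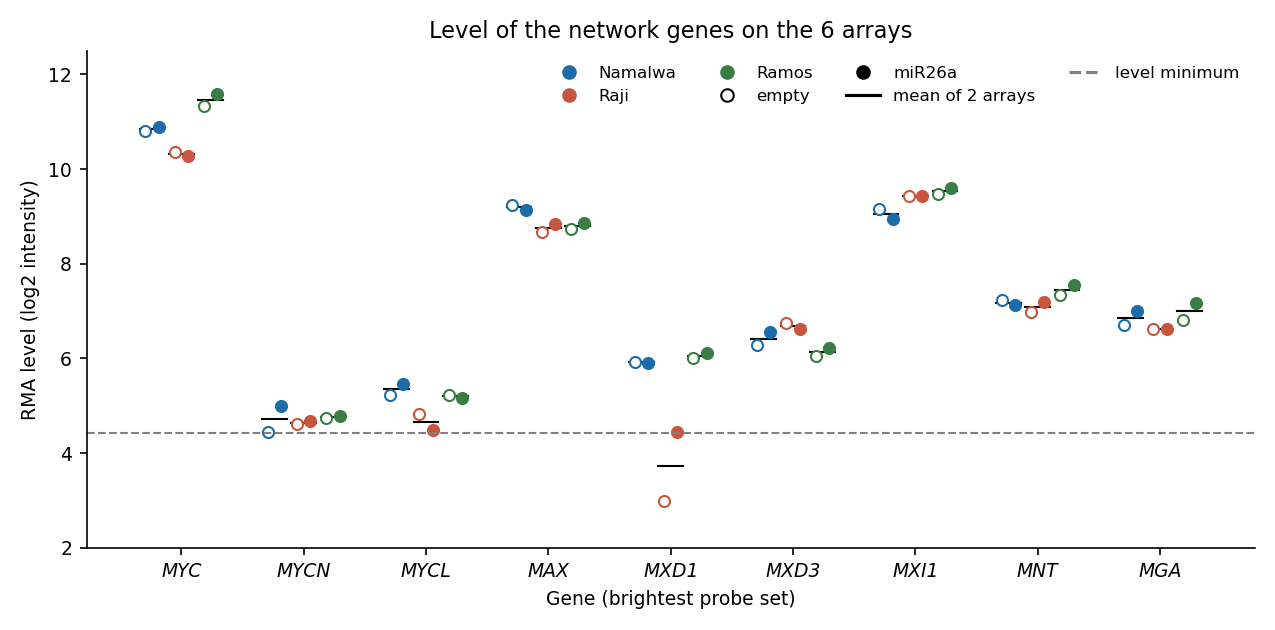
Log2 RMA level of each tested member on the 6 arrays, by line (colour) and group (open for empty, filled for miR26a), with the mean of each line as a bar and the level minimum of 4.42 dashed; levels of different genes are not comparable. MYC separates the lines from 10.27 in Raji to 11.60 in Ramos, and MXD1 is near or below the minimum in Raji only.

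The other MYC genes were near the level minimum. MYCN, the paralog known from neuroblastoma, lay between 4.45 (Namalwa empty) and 5.0 (Namalwa miR26a), with the 4 Raji and Ramos arrays at 4.62 to 4.79. Its lines overlapped, none of the 3 pairs of lines passed (limma adjusted p from 0.539 to 0.896), and 8 of its 10 probe sets lay below the minimum. MYCL, the paralog first found in lung cancer, was at 5.24 and 5.47 in Namalwa, 4.83 and 4.50 in Raji, and 5.23 and 5.17 in Ramos, empty first. By this probe set Raji was the lowest line, by 1.61-fold against Namalwa (limma adjusted p = 0.00462) and 1.45-fold against Ramos (limma adjusted p = 0.015). The other MYCL probe set gave the opposite order for Raji, where Raji averaged 4.81, Namalwa 4.62 and Ramos 4.13, so the direction for MYCL depends on the probe set. The call against Namalwa was also lost without the Namalwa miR26a array (adjusted p = 0.0602), and that against Ramos without the Raji miR26a (0.144), Ramos empty (0.067) or Ramos miR26a array (0.0617), within ranges of 0.000872 to 0.389 and 0.00317 to 0.691 over 18 alternatives each.

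MAX, the shared partner of the whole network, was highest in Namalwa by its brightest probe set. Its level was 9.24 and 9.15 in Namalwa, 8.67 and 8.84 in Raji, and 8.73 and 8.87 in Ramos, empty first. Both Namalwa arrays lay above all 4 others, and the Raji and Ramos ranges overlapped. Namalwa exceeded Raji by 1.36-fold (limma adjusted p = 0.0197), while Namalwa minus Ramos was 0.39 (95% interval 0.10 to 0.68) and did not pass (limma adjusted p = 0.0746). Raji minus Ramos was -0.05 (95% interval -0.34 to 0.25), and its sign turned to 0.05 with quantile normalisation over the tested genes. The Namalwa difference was 0.32 against Raji by the next brightest MAX probe set, and 2 further sets above the minimum placed Raji above Namalwa, by up to 0.26. The mean of all MAX probe sets gave -0.06, and without the Namalwa empty array the call against Raji was lost (adjusted p = 0.171), as without the Raji empty array (0.116), within a range of 0.00859 to 0.609 over 18 alternatives.

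Among the repressors, MXD1 set Raji apart. MXD1, which is induced as cells leave the cycle and differentiate, had a log2 level of 5.92 and 5.91 in Namalwa and 6.01 and 6.11 in Ramos. In Raji it was 2.99 on the empty and 4.45 on the miR26a array. Every Namalwa and Ramos array lay above both Raji arrays, and the Raji arrays differed more from each other (SD 1.04, n = 2) than those of any other line and member. Namalwa minus Raji was 2.19 (SE 0.29) and Raji minus Ramos -2.34. The Raji mean of 3.72 lay below the level minimum and MXD1 passed that minimum only through Namalwa and Ramos, so no fold is given and the differences from Raji are a description. The next brightest MXD1 probe set showed the same order for Raji, at 3.72 and 3.89 against 5.21 to 5.99 on the other 4 arrays. Namalwa minus Ramos was -0.14 (95% interval -0.80 to 0.52) and had the opposite sign, 0.54, by that second set.

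MXD3, a member of the family found in dividing cells, ran in the opposite order to MYC. It was at 6.74 and 6.62 in Raji, 6.28 and 6.56 in Namalwa, and 6.04 and 6.22 in Ramos, empty first. The ranges of the 3 lines did not overlap, and Raji exceeded Ramos by 1.46-fold (limma adjusted p = 0.00858). The differences of Namalwa from Raji (-0.26, limma adjusted p = 0.152) and from Ramos (0.29, limma adjusted p = 0.213) did not pass. The call for Raji against Ramos was lost without the Raji empty array (adjusted p = 0.0932) and without the Ramos empty array (0.0775), within a range of 0.00267 to 0.145 over 19 alternatives.

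MXI1, an MXD family repressor once studied as a candidate tumour suppressor, was lowest in Namalwa. It stood at 9.16 and 8.96 there, 9.43 and 9.44 in Raji, and 9.46 and 9.60 in Ramos. Both Namalwa arrays lay below the other 4, while Raji and Ramos differed by less than their spread allows to tell (Raji minus Ramos -0.10, 95% interval -0.40 to 0.20). Namalwa was lower than Raji by 1.30-fold (limma adjusted p = 0.0445) and than Ramos by 1.39-fold (limma adjusted p = 0.0425). Both calls sat close to the threshold and were lost under 12 and 11 of 19 alternatives, with adjusted p in ranges of 0.0214 to 0.298 and 0.0175 to 0.373. The call against Raji was lost without the Namalwa miR26a (adjusted p = 0.298), Raji empty (0.0986), Raji miR26a (0.13) or either Ramos array (0.0605), and that against Ramos without either array of Namalwa (0.0576 empty, 0.261 miR26a) or of Ramos (0.0979 empty, 0.373 miR26a).

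MNT and MGA, the broadly expressed repressors, followed the order of MYC in their means. MNT was at 7.23 and 7.12 in Namalwa, 6.99 and 7.19 in Raji, and 7.33 and 7.55 in Ramos. Both Ramos arrays were above the other 4, whose ranges overlapped, and no pair passed (limma adjusted p = 0.055 for Raji minus Ramos, 0.24 for Namalwa minus Ramos and 0.632 for Namalwa minus Raji). MGA, which also serves as a scaffold of a noncanonical Polycomb complex, was at 6.71 and 7.0 in Namalwa, 6.62 and 6.63 in Raji, and 6.82 and 7.17 in Ramos. Raji was the lowest line on all 3 MGA probe sets above the minimum. Raji minus Ramos was -0.37 (SE 0.13, limma adjusted p = 0.0436), and was -0.32 and -0.43 by the other 2 sets. That call was lost under 11 of 19 alternatives, among them the quantile normalisation (adjusted p = 0.0834) and the omission of the Raji miR26a (0.317), Ramos empty (0.0881) or Ramos miR26a array (0.338), in a range of 0.0214 to 0.338.

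In counts, 5 of the 9 tested members differed between Namalwa and Raji, where 46.1% of all tested genes did (23.4% higher, 22.8% lower). MYC, MYCL, MAX and MXD1 were higher in Namalwa and MXI1 in Raji. Between Raji and Ramos 5 of 9 differed, against 50.5% of all genes (26.1% higher, 24.4% lower): MYC, MYCL, MXD1 and MGA were lower in Raji and MXD3 higher. Between Namalwa and Ramos 2 of 9 differed, MYC and MXI1, both lower in Namalwa, against 14.7% of all genes (8.09% higher, 6.57% lower). The first 2 shares lie near those of all genes, so the number of members called is no result about the network. MXD1 is counted in both comparisons with Raji, although it passed the level minimum only through Namalwa and Ramos. Its part in those counts is a description. The median difference of the members was 0.24, -0.35 and -0.13 in the same order, beside -0.05, 0.06 and 0.00 for all tested genes. Each line enters 2 of these comparisons, so they are not independent. Between Namalwa and Raji the count fell to 3 without the Namalwa empty, Namalwa miR26a or Raji empty array. Between Raji and Ramos it fell to 2 without the Ramos empty array and to 3 without the Raji miR26a or Ramos miR26a array. Between Namalwa and Ramos it fell to 0 without the Namalwa empty, Namalwa miR26a or Ramos miR26a array and to 1 without the Ramos empty array.

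**Figure D2:**
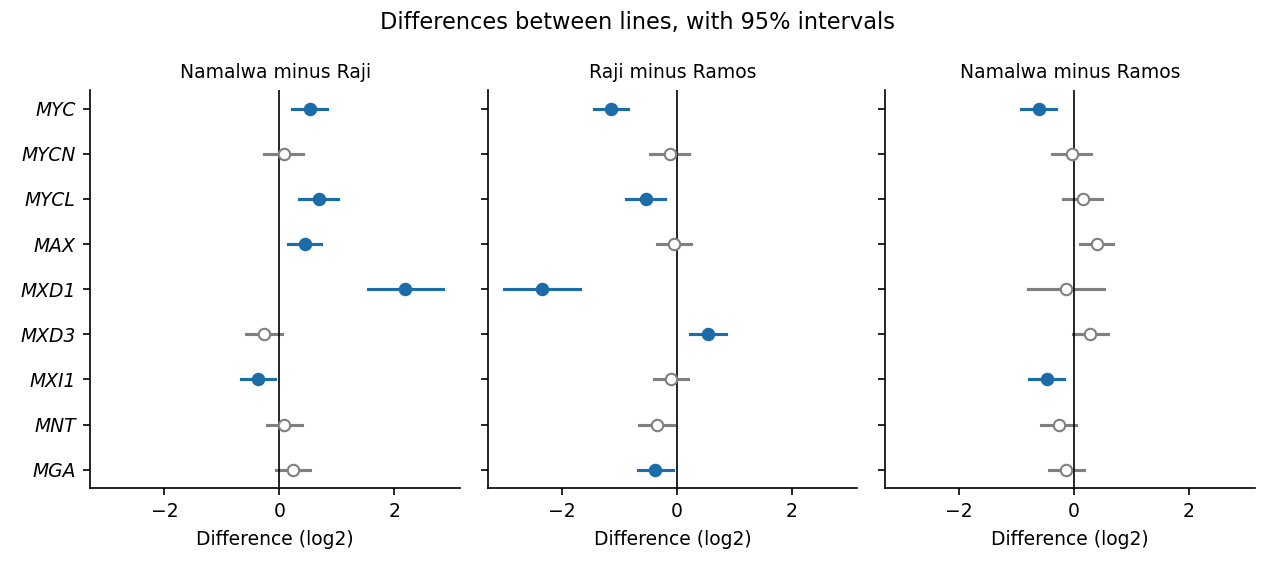
Difference between 2 lines (log2, mean of 2 arrays each) with its 95% interval for the 9 tested members; filled points have a limma adjusted p below 0.05. MYC is filled in all 3 panels, and the MXD1 differences from Raji, 2.19 and -2.34, are against a signal below the level minimum.

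Induction of miR-26a was accompanied by small differences in the members. Of 9 tested, 0 passed over all genes with limma (0 of 12012 genes, 0%), and 0 of 9 had an unadjusted p under 0.05, as 1548 of all genes did. The median change of the members was 0.11 against -0.01 for all tested genes. The sign was the same in all 3 lines for 2 of 9, MYCN and MGA, both higher, whereas 35.1% of all genes kept their sign (15.5% higher, 19.6% lower). Without Raji 203 genes passed and without Ramos 23, with 0 members in either case. For MGA the other 2 probe sets above the minimum gave -0.08 and -0.32, and for MYCN the only other one gave -0.05.

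MYC itself was at 0.08 over the lines (SE 0.11, 95% interval -0.17 to 0.32, limma adjusted p = 0.824). The lines gave 0.07 (Namalwa), -0.10 (Raji) and 0.26 (Ramos), each between the 5th and 95th percentiles of all tested genes of that line. MAX was at 0.07 (95% interval -0.16 to 0.31), MXI1 at -0.02 (95% interval -0.26 to 0.23, turning to 0.02 with quantile normalisation), MNT at 0.11 and MXD3 at 0.11. MYCL was at -0.06, with 0.24 by its other probe set.

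The member with the largest mean change was MXD1, at 0.52 (SE 0.24, 95% interval -0.02 to 1.06, limma adjusted p = 0.41), with 1.47 (Raji), -0.01 (Namalwa) and 0.10 (Ramos) by line. In Raji the change exceeded that of the other lines by 1.42 (SE 0.22), and the fit with a further term for the Raji response gave a limma adjusted p of 0.0189. It is given as a description: Raji has 1 array per group, the probe set read 2.99 and 4.45 there, below or at the level minimum, and it passed that minimum only through the other lines. The response of each line was tested in a separate fit. In the fit for Raji 25 genes (0.208% of those tested, 0.125% higher and 0.0833% lower) passed, with 0 of the other 8 members. In the fits for Namalwa and for Ramos 0 genes (0%) passed. An unadjusted p under 0.05 was found for 1 of 9 members for Raji (MXD1), 1 for Namalwa (MYCN) and 0 for Ramos. Of all 12012 tested genes, 1045, 789 and 297 had one, in the same order. The MYCN probe set lies near the level minimum. It changed by 0.54 in Namalwa, and the other MYCN set above the minimum by -0.38. The second MXD1 probe set gave 0.17 in Raji, -0.22 in Namalwa and 0.24 in Ramos, and the call was lost with the mean of all MXD1 sets (0.54, adjusted p = 0.598) and with quantile normalisation (0.78, adjusted p = 0.391; in a range of 0.00816 to 0.861 over 11 alternatives).

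The probe sets shared by MXD4 and MIR4800 were higher with miR26a in all 3 lines. The brightest was at 6.19 and 6.75 in Namalwa, 6.27 and 6.82 in Raji, and 6.56 and 6.99 in Ramos, empty first. Its changes were 0.56, 0.55 and 0.44, each above the 95th percentile of all tested genes of that line (0.43, 0.41 and 0.37). The other sets changed by 0.04, 0.56 and 0.15, and by 0.81, 0.52 and 0.43. When probe sets with several genes were added as units of their own, an alternative chosen after seeing the data, the brightest was at 0.51 (SE 0.10, 95% interval 0.29 to 0.74) and did not pass (limma adjusted p = 0.0914). The annotation names both genes, with MIR4800 inside MXD4, so the signal was not assigned to 1 of them here.

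**Figure D3:**
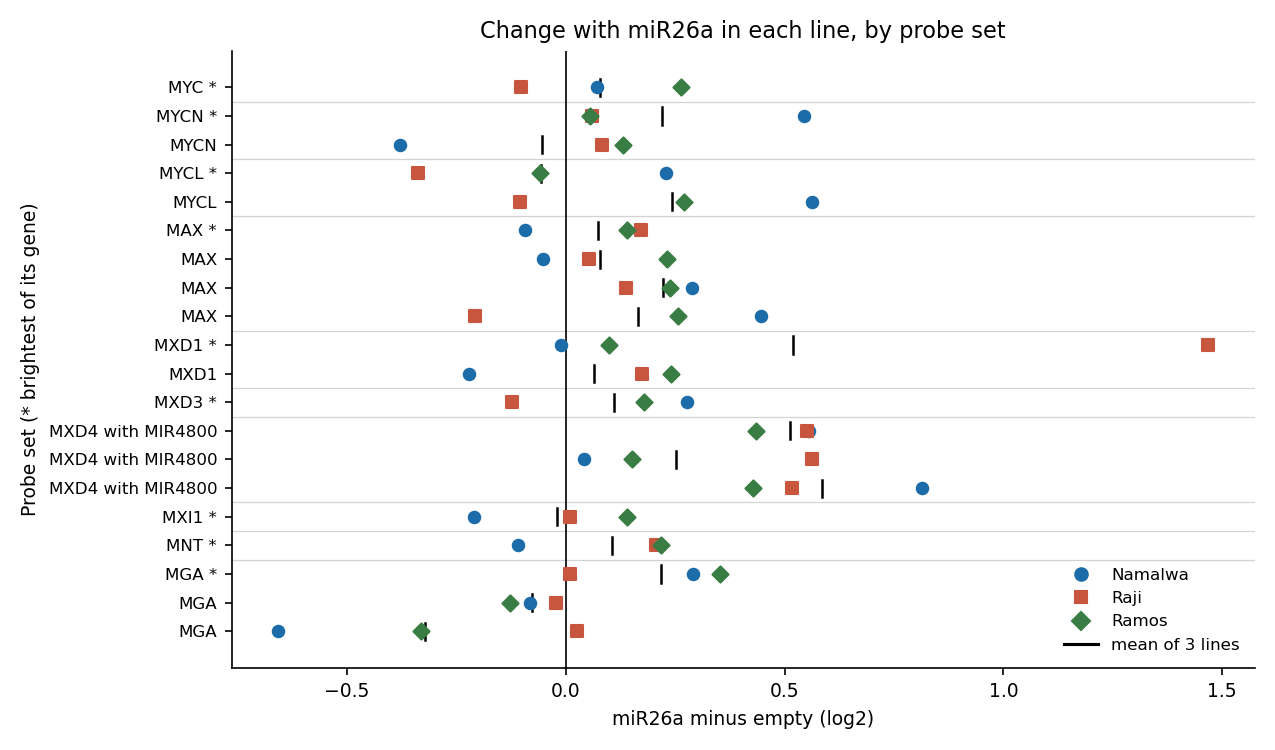
Change with miR26a (log2) in Namalwa, Raji and Ramos for each probe set of the network above the level minimum, with the mean of the 3 lines as a bar and an asterisk at the brightest set of a gene. The brightest MXD1 set is at 1.47 in Raji, where it reads at or below the minimum, and the 3 sets shared by MXD4 and MIR4800 are to the right of 0 in every line.

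Across the 6 arrays the members' profiles followed the lines to differing degrees. As a description over 6 arrays of 3 lines, MYC correlated at r = 0.840 with MNT, 0.828 with MGA and 0.778 with MXD1. Its r was 0.671 with MYCL, 0.334 with MYCN, 0.244 with MXI1, 0.058 with MAX and -0.839 with MXD3. The tested genes most like MYC by Pearson's r were PLEKHG4B (0.998), the AT-rich DNA-binding protein ARID3A (0.996), RASSF6 (0.994), ZNF420 (0.993) and the interleukin-7 receptor IL7R (0.992), whose level ran from 5.13 in Raji to 9.58 in Ramos. Those most like MXD1 were the lipid kinase PIK3C3 (0.999), VEZT (0.997), GATAD2B (0.996), SNTB1 (0.996) and ACAP2 (0.995). All 5 had their lowest level on the Raji empty array and the next lowest on the Raji miR26a array, as MXD1 did. They were picked by their match to MXD1 on these same arrays, so this order is no separate result. Those most like MYCL were OCRL (0.991), DRICH1 (0.990), GPR176 (0.988), DESI2 (0.988) and TMEM242 (0.986).

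Among genes that MYC is known to induce, most calls were for Raji against Ramos. Of 21 tested, 13 were lower and 1 higher in Raji than in Ramos, where 24.4% of all genes were lower and 26.1% higher. The list median was -0.49 beside 0.06 for all genes. The glycolytic enzyme HK2 was 2.27-fold, the transferrin receptor TFRC 2.25-fold and the nuclear import factor IPO4 1.73-fold lower in Raji. Against Namalwa, 6 were higher and 1 lower in Namalwa than in Raji (23.4% and 22.8% of all genes), with a median of 0.18 beside -0.05. TFRC and HK2 were 2.44-fold and 1.57-fold higher in Namalwa, and NOP16, a nucleolar protein, was 2.13-fold lower. NOP16 was highest in Raji, with line means of 10.79 there, 9.70 for Namalwa and 10.16 for Ramos, unlike MYC. Between Namalwa and Ramos 3 of 21 were lower in Namalwa and 0 higher (6.57% and 8.09% of all genes): FBL, which methylates ribosomal RNA, by 1.45-fold, HK2 by 1.45-fold and NOP16 by 1.37-fold. The median there was -0.24 beside 0.00, and 20 of 21 differences were below 0. The difference was above 0 for 1 of the 21, or 4 with quantile normalisation, and for 6036 of all 12012 tested genes. Medians kept their sign with array medians set equal and with quantile normalisation. The 3 calls fell to 0 without the Namalwa empty array and to 0 without the Namalwa miR26a array, to 1 without either Ramos array, and rose to 5 without either Raji array; quantile normalisation left 1. Of the 13 lower calls against Ramos, 9 were left without the Raji miR26a or the Ramos miR26a array, and of the 6 higher in Namalwa 3 without the Namalwa miR26a or the Raji miR26a array and 4 without either Ramos array.

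With miR26a, 0 of these 21 genes passed over all genes, 18 had a change below 0 and 6 were lower in all 3 lines (19.6% of all genes). The median was -0.07 beside -0.01. A change above 0 was found for 3 of the 21 and for 5672 of all 12012 tested genes. Those 3 became 7 without Raji, 7 without Ramos, 2 without Namalwa and 5 with quantile normalisation. The cycle phosphatase CDC25A was at -0.45 (limma adjusted p = 0.119), with -0.44 (Namalwa), -0.51 (Raji) and -0.40 (Ramos). The telomerase subunit TERT was at -0.48 (limma adjusted p = 0.214), with -0.18 (Namalwa), -0.96 (Raji) and -0.30 (Ramos). In Raji TERT read 5.38 on the empty array and 4.42, at the level minimum, on the miR26a array.

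**Figure D4:**
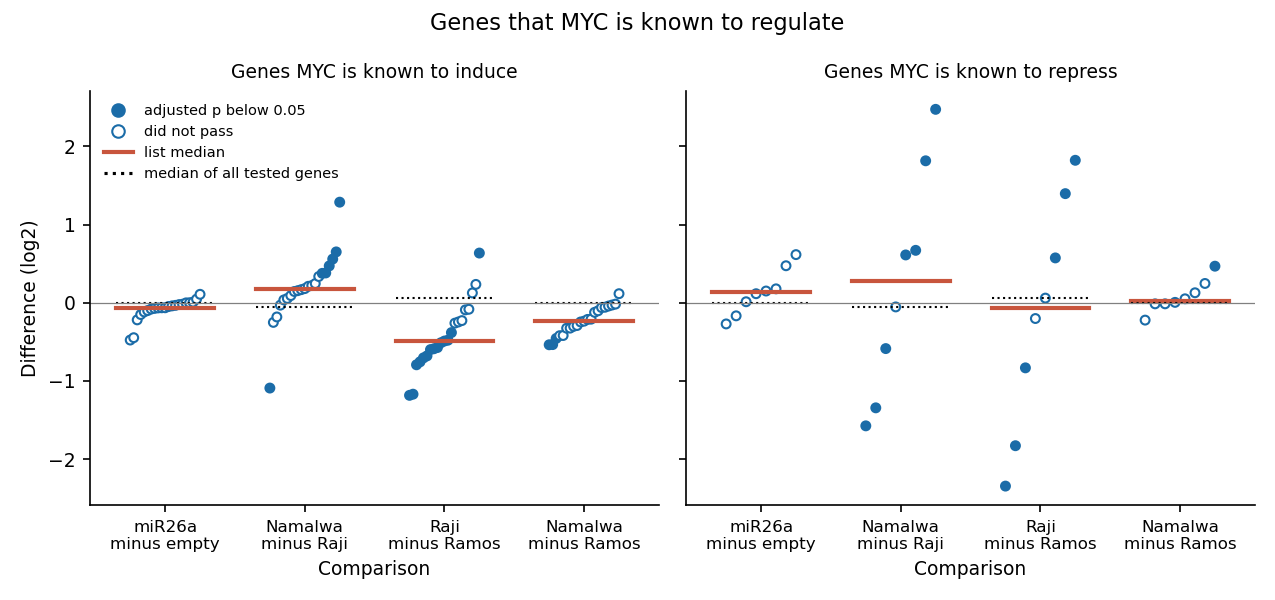
Difference (log2) of each tested gene that MYC is known to induce (left, 21 genes) or to repress (right, 8 genes) in the 4 comparisons, filled where the limma adjusted p is below 0.05, with the list median in red and the median of all tested genes dotted. The induced genes lie mostly below 0 for Raji minus Ramos (median -0.49), and the repressed genes spread to both sides.

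Genes that MYC is known to repress moved both ways between the lines. Of 8 tested, 4 were higher and 3 lower in Namalwa than in Raji (23.4% and 22.8% of all genes), 3 higher and 3 lower in Raji than in Ramos (26.1% and 24.4%), and 1 higher and 0 lower in Namalwa than in Ramos (8.09% and 6.57%). That last call, TXNIP, was 0 without any one Namalwa or Ramos array and 0 with array medians set equal. The cycle inhibitor CDKN1A was lowest in Raji, 5.55-fold below Namalwa and 5.09-fold below Ramos, as was the stress gene GADD45A, 3.52-fold and 3.56-fold. CDKN1B, a second cycle inhibitor, was highest in Raji, 2.98-fold above Namalwa and 3.53-fold above Ramos. With miR26a 0 of 8 passed and 3 were higher in all 3 lines (15.5% of all genes). CDKN1A was at 0.47 (limma adjusted p = 0.111) and TXNIP at 0.61 (limma adjusted p = 0.073). Without Raji, or without either Raji array, 1 gene of the list passed as higher.

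TXNIP, an inhibitor of thioredoxin, and the arrestin ARRDC4 are targets of MLX and its partners, the glucose-sensing arm of the network. Of 5 tested genes of that arm, 2 were higher in Namalwa than in Raji and 0 lower (23.4% and 22.8% of all genes), 1 was lower in Raji than in Ramos and 0 higher (24.4% and 26.1%), and 1, TXNIP, was higher in Namalwa than in Ramos and 0 lower (8.09% and 6.57%). ARRDC4 had levels of 4.01 and 3.09 in Raji, below the level minimum, against 7.50 to 7.68 on the other 4 arrays. It passed that minimum only through Namalwa and Ramos, so its differences are given as levels. ARRDC4 is the 1 gene counted as lower in Raji than in Ramos and 1 of the 2 higher in Namalwa. Those counts are therefore a description for ARRDC4. TXNIP was 1.59-fold higher in Namalwa than in Raji and 1.38-fold higher than in Ramos. In the miR26a comparison 0 of the 5 passed, and 1 of the 5 passed as higher without Raji or either Raji array. ARRDC4 was at -0.25 (limma adjusted p = 0.618), with -0.01 (Namalwa), -0.92 (Raji) and 0.18 (Ramos). That mean rests on Raji, where the gene read below the level minimum, so it is a description.

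Of 11 tested genes of the SIN3 and HDAC corepressor that MXD proteins recruit, 2 were higher and 1 lower in Namalwa than in Raji (23.4% and 22.8% of all genes) and 2 higher and 2 lower in Raji than in Ramos (26.1% and 24.4%). Between Namalwa and Ramos 0 passed in either direction (8.09% and 6.57%), where the smallest p belonged to SAP30 (limma adjusted p = 0.0582) and BRMS1 (0.0607). SIN3A, the scaffold of the complex, was 1.61-fold higher in Namalwa than in Raji, SAP30 1.41-fold higher and BRMS1 1.58-fold lower. The 2 higher in Raji than in Ramos were 0 without the Raji miR26a or either Ramos array and 1 without Raji empty, and the 2 lower were 1 without either Ramos array. The 2 higher in Namalwa than in Raji were 1 without Namalwa miR26a, and the 1 lower was 2 without either Raji array. Without Raji or either of its arrays, 1 was higher and 2 lower in Namalwa than in Ramos. With array medians set equal, 1 was higher in Raji than in Ramos and 2 lower in Namalwa than in Ramos, and with quantile normalisation 1 was lower in Raji than in Ramos. Against Ramos, SAP30 was 1.87-fold lower in Raji, while SUDS3 and RBBP7 were 1.36-fold and 1.28-fold higher. With miR26a 0 of 11 passed, and SIN3B was at 0.15 and SAP30 at -0.14.

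Of 21 tested coactivators and partners of MYC, 7 were higher and 2 lower in Namalwa than in Raji (23.4% and 22.8% of all genes), and 1 higher and 9 lower in Raji than in Ramos (26.1% and 24.4%). The 7 higher were 3 without Namalwa empty, the 2 lower were 1 without any one of the 6 arrays, and the 9 lower were 3 without Ramos empty. The 1 higher in Raji was 0 without the Raji miR26a or either Ramos array. With array medians set equal that 1 was also 0, and the 2 lower in Namalwa than in Raji were 1. MYCBP2, a large protein found by its binding to MYC, was 3.16-fold and 3.25-fold lower in Raji than in Namalwa and Ramos, and CTR9, a subunit of the PAF1 elongation complex, 1.86-fold and 2.15-fold. The acetyltransferase CREBBP was 1.76-fold lower in Raji than in Namalwa and the chromatin remodeller BPTF 1.68-fold lower than in Ramos. Between Namalwa and Ramos 1 gene passed, the ATPase RUVBL1, 1.56-fold lower in Namalwa (0 higher and 1 lower, beside 8.09% and 6.57%), and 0 passed without Namalwa empty or Ramos empty. In the miR26a comparison 0 of 21 passed, with WDR5 at -0.24 (limma adjusted p = 0.366) and KAT5 at -0.22 (limma adjusted p = 0.554).

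Of 18 tested genes for the turnover of MYC protein, 2 were higher and 6 lower in Namalwa than in Raji (23.4% and 22.8% of all genes), 4 higher and 5 lower in Raji than in Ramos (26.1% and 24.4%), and 1 higher and 2 lower in Namalwa than in Ramos (8.09% and 6.57%). The first 2 shares of called genes lie near those of all genes. The 6 lower were 3 without either Namalwa array, the 2 higher were 1 without Namalwa empty or Raji empty, and the 5 lower were 3 without either Ramos array. For Namalwa against Ramos the 1 higher was 0 without Namalwa empty or Ramos empty, and the 2 lower were 0 without either Namalwa array or Ramos empty, 1 without Ramos miR26a and 4 without either Raji array. FBXW7, the ubiquitin ligase subunit that marks phosphorylated MYC for destruction, was 2.10-fold lower in Raji than in Namalwa and 2.38-fold lower than in Ramos. The deubiquitinase USP22 was 2.04-fold and 2.03-fold higher in Raji, STUB1 1.53-fold higher in Raji than in Namalwa and the kinase PIM1 2.37-fold higher in Raji than in Ramos. PIM1 was 1.56-fold higher in Namalwa than in Ramos, and DYRK2 and TRIM32 were 1.48-fold and 1.46-fold lower. With miR26a 0 of 18 passed, and 2 passed as lower without Raji or either Raji array. SKP2, a ligase subunit for MYC and for cycle inhibitors, was at -0.64 (limma adjusted p = 0.073), with -0.77 in Namalwa, -0.45 in Raji and -0.69 in Ramos. PPP2R5A, a phosphatase subunit that favours MYC breakdown, was at -0.49 (limma adjusted p = 0.108), with -0.60, -0.36 and -0.52.

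Partners of MGA in its Polycomb complex were tested as 9 genes. In Namalwa 3 were higher and 2 lower than in Raji (23.4% and 22.8% of all genes), 1 was higher and 3 lower in Raji than in Ramos (26.1% and 24.4%), and 0 were higher and 1 lower in Namalwa than in Ramos (8.09% and 6.57%). E2F6, a repressor in the same complex as MGA, was 2.33-fold lower in Raji than in Namalwa and 2.75-fold lower than in Ramos, and RYBP 1.71-fold and 1.63-fold higher in Raji. RING1 was 1.5-fold lower in Raji than in Ramos. TFDP1 was 1.76-fold lower in Namalwa than in Raji and 2.51-fold lower than in Ramos. In the miR26a comparison 0 of 9 passed, 8 had a change below 0 and 5 were lower in all 3 lines (19.6% of all genes). The median was -0.14 beside -0.01. It was -0.07 without Namalwa, -0.18 without Raji and -0.12 without Ramos. A change above 0 was found for 1 of the 9 and for 5672 of all 12012 tested genes. That 1 became 2 without Namalwa and stayed 1 without Raji or without Ramos. TFDP1 was at -0.19 and WDR5, also counted among the MYC partners, at -0.24.

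Of 14 tested regulators of MYC transcription, 4 were higher and 3 lower in Namalwa than in Raji (23.4% and 22.8% of all genes), 3 higher and 3 lower in Raji than in Ramos (26.1% and 24.4%), and 2 higher and 0 lower in Namalwa than in Ramos (8.09% and 6.57%). The 3 lower in Namalwa than in Raji were 1 without Namalwa miR26a or Raji miR26a. Against Ramos, the 3 higher in Raji were 1 without Ramos miR26a, and the 3 lower were 5 without either Namalwa array and 5 with array medians set equal. The 2 higher in Namalwa than in Ramos were 0 without Namalwa empty or either Ramos array and 1 without Namalwa miR26a or with array medians set equal, and 1 gene was lower without either Raji array. TCF7L2, the factor through which WNT signals reach MYC, was at 3.74 and 3.68 in Raji, below the level minimum. It was at 6.85 to 7.45 on the other 4 arrays and passed that minimum only through Namalwa and Ramos. TCF7L2 is counted above in both comparisons with Raji, where its part is a description. BCL6, the germinal centre repressor, was highest in Raji, 2.79-fold above Namalwa and 3.97-fold above Ramos, and FUBP1, which binds upstream of MYC, 2.09-fold lower in Raji than in Namalwa. NOTCH1 was 2.40-fold lower in Raji than in Ramos. Namalwa exceeded Ramos in BCL6 by 1.42-fold and in TCF7L2 by 1.40-fold. With miR26a 0 of 14 passed, with E2F1 at -0.21 (limma adjusted p = 0.423) and FOXO3 at 0.18 (limma adjusted p = 0.517).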

How the data were processed

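The 6 RNA samples were biotin-labelled and read on Affymetrix U133 Plus 2.0 arrays. Values were deposited on the log2 scale, made by the authors with RMA in BRB Array Tools per the labels' design text, with GCOS also in the submitters' processing notes; versions are not given in the sources used here. RMA normalises the arrays to a common distribution, so a shift of all RNAs one way would not be seen. Probe sets were named from the platform annotation, with symbols updated through Entrez IDs for 41037 of 41091 probe sets with 1 symbol; 1801 had several and 11721 none.

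limma (3.58.1, R 4.3.3) was fitted once to all 6 arrays with line and group, which gives miR26a minus empty with the line as a block and the 3 pairs of lines with the group as a block; a further term for 1 line's group tested its response. A 95% interval stands with some of the differences. P-values were adjusted by Benjamini-Hochberg over 12012 genes at a threshold of 0.05. Same-line arrays deviated together from the group means (r = 0.861, 0.950 and 0.917 in Namalwa, Raji and Ramos). The fits were tested on simulated data, drawn around a common mean per gene with independent noise and with shifts added to chosen genes. All other genes had no differences between lines or in the response there, so the effect of such differences was not tested. Members and lists were chosen with earlier results of these data known. The text names every member; up to 3 genes per list and comparison by size among those past the threshold, or the 2 with the smallest p where none passed; the 5 genes most like MYC and the 2 most variable other members; and EZH2. Lists came from general knowledge. Alternatives were other blocks, level minimums, scalings, probe set rules, priors, thresholds and left-out lines or arrays. Detection calls were not used.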

Additional observations from a re-analysis of the deposited data

Results flagged for a closer look

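MXD1 differed between lines: its change with miR26a in Raji was 1.42 log2 above that in the other lines, a value from 1 array per group in Raji, at or below the level minimum, and given as a description. The brightest MXD1 probe set read 2.99 and 4.45 in Raji, and the second one 3.72 and 3.89.

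The 3 probe sets annotated to both MIR4800 and MXD4 lie outside the genes tested and read higher with miR26a than in the empty array of each line. Their mean changes were 0.51, 0.25 and 0.59 log2. No group was large enough for a check of single outlying arrays.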

How the results depend on the processing

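Each alternative changed a single choice, except that the intensity trend and the robust prior were changed together. For miR26a minus empty 0 members passed under all 17 alternatives, of 9 tested or, with the 75th percentile minimum, of 6 (MYCN, MYCL and MXD1 lie below it and were not tested), with the line as a replicate block in the fit, with no replicate block (0) and with a random replicate block (0). The genes called over the whole table went from 0 to 50 with a level minimum at the 75th percentile, 102 with an intensity trend and robust prior, 79 at a threshold of 0.1, 203 without Raji and 23 without Ramos, and to 1 with probe sets of several genes as units, an alternative chosen after seeing the data.

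Members called between Namalwa and Raji (5) were 3 with the 75th percentile minimum, where MYCL and MXD1 were not tested and MYC, MAX and MXI1 were still called, 3 with the mean of all probe sets, 2 with the probe set of largest SD, 0 with no moderation, 3 at a threshold of 0.01 and 1 at 2-fold or more, and 3 to 4 with an array left out. Between Raji and Ramos (5) they were 0 with no moderation, 3 at 0.01 and 2 at 2-fold, and 2 to 6 with an array left out. Between Namalwa and Ramos (2) they were 1 with no group block, with no level minimum and with the largest SD, 0 with no moderation, at 0.01 and at 2-fold, and 0 to 3 with an array left out. Without moderation 490, 988 and 0 genes of the whole table passed, in that order, and at 2-fold 1683, 1868 and 340; between Namalwa and Ramos 783 passed at 0.01 and 870 to 983 without a Namalwa or Ramos array. The MXD1 response in Raji, the only member called, was not tested with the 75th percentile minimum (0 members called, 40 genes of the whole table) and was lost (0) with quantile normalisation, the mean of all probe sets, the largest SD, no moderation and 0.01, where the whole table gave 10, 1, 0, 2 and 4 genes.

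Signs turned as follows. With the mean of all probe sets, miR26a minus empty became 0.094 for MYCL, -0.0325 for MNT and -0.0489 for MGA, Namalwa minus Raji -0.0636 for MAX, Raji minus Ramos 0.0736 for MYCL, 0.32 for MAX and 0.0227 for MNT, and Namalwa minus Ramos 0.21 for MXD1 and 0.0316 for MNT. With the largest SD, miR26a minus empty became 0.24 for MYCL and -0.32 for MGA, and MYCL became -0.19 for Namalwa minus Raji and 0.68 for Raji minus Ramos. Quantile normalisation gave 0.0181 for MXI1 with miR26a and 0.0489 for MAX in Raji minus Ramos. Leaving out a line gave miR26a minus empty of -0.0158 to 0.17 for MYC, -0.20 to 0.0855 for MYCL and -0.10 to 0.075 for MXI1. Leaving out an array gave Namalwa minus Raji of -0.16 to 0.32 for MYCN and -0.0744 to 0.25 for MNT, Raji minus Ramos of -0.24 to 0.0051 for MYCN, -0.12 to 0.0288 for MAX and -0.22 to 0.0181 for MXI1, and Namalwa minus Ramos of -0.28 to 0.20 for MYCN, -0.0635 to 0.36 for MYCL and -0.54 to 0.25 for MXD1. The cause was not tested.

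The response tests have 1 residual degree of freedom, and leaving out an array ends them. With 2 arrays per line and moderated variances, the calls rest on the spread shared across genes. MYCN, MYCL and MXD1 in Raji lie near the level minimum, which limits their differences.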
